A study of Homo sapiens with 33 samples.

Results

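The genes described here are 9 genes of the germline and of meiosis, DAZL, DDX4, MAEL, DMC1, MSH4, MSH5, SYCP3, STAG3 and REC8, out of 35805 genes with an RNA value. They were matched by name in the RNA table and in the table of promoter ChIP-seq values, and all 9 were found in both. The set was chosen by measured values in part: DAZL, DMC1 and MSH5 were selected on their lower RNA in EZH2-deficient cells. The differences between cells without EZH2 and the other genotypes are therefore given for these 9 genes as a description, without a p value. The comparison of cells with 1 disrupted EZH2 allele and wild-type cells, which the choice did not use, was tested. It shares its wild-type libraries with a comparison of cells without EZH2, so the test is not fully independent of the choice.

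The study measured RNA (RNA-seq) and histone marks (ChIP-seq) in H9, an established line of human embryonic stem cells (ESCs). EZH2 is the enzyme of the polycomb repressive complex PRC2 that methylates lysine 27 of histone H3 (H3K27me3). All mutant cells descended from H9 by CRISPR/Cas9 cutting of an early EZH2 exon. EZH2-/+ ESCs had 1 disrupted allele, and EZH2-/- ESCs had both disrupted, the second in cells that carried a doxycycline (DOX) inducible EZH2 transgene. EZH2-/-+EZH2 ESCs were EZH2-/- ESCs in which DOX induced that transgene, and the parental line served as EZH2+/+. These 4 genotypes are called heterozygous, null, restored and wild-type ESCs in the order just given. RNA came from cells sorted for the pluripotent surface antigen SSEA4, in 3 libraries per genotype. The labels do not say which clone gave each library, and each mutant genotype may rest on few clones of 1 parental line.

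Germ cells pass through meiosis, the divisions that make eggs and sperm. Each chromosome is first held to its copy by meiotic cohesin, is then cut and repaired against its homolog, and is paired along its length by the synaptonemal complex. Most genes of this programme are silent in somatic cells, and many of their promoters are rich in CpG. Their silencing in early embryonic cells is known to involve DNA methylation and a variant polycomb complex, PRC1.6, which is recruited by E2F6 and by MGA with MAX, besides PRC2.

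Promoter sequence is shown for 6 of the 9 genes because the promoters differed in H3K27me3 and in CpG content, and these differences are described further on. RefSeq gave 12 promoters for the 9 genes, with at least 1 for every gene. Each line holds the 250 bases before a RefSeq start (GRCh38.p14), read 5′ to 3′ on the strand of the gene, and capitals mark every CG. DAZL (chr3:16605424-16605673, minus strand), DMC1 (chr22:38570184-38570433, minus strand) and MSH5 (chr6:31739755-31740004, plus strand) had less RNA in null ESCs. MAEL (chr1:166975332-166975581, plus strand) and STAG3 (chr7:100177474-100177723, plus strand) carried the most H3K27me3 among the 9 genes. MSH4 (chr1:75796632-75796881, plus strand) is shown as a promoter with few CG and little H3K27me3.
DAZL: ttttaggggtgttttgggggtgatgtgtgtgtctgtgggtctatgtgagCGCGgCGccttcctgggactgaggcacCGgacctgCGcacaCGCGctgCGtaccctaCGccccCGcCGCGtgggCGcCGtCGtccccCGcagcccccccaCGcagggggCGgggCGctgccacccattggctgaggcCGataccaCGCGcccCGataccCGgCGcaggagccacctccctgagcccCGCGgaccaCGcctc
DMC1: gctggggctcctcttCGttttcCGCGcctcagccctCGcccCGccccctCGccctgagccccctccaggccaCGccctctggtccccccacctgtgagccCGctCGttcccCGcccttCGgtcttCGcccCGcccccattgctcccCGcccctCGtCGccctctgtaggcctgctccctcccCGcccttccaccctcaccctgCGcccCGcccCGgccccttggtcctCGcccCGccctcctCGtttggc
MSH5: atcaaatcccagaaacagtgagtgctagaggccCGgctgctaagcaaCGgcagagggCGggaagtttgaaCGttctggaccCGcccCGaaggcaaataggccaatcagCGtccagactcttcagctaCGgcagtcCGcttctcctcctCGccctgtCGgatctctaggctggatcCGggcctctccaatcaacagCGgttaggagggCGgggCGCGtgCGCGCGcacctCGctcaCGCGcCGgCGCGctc
MAEL: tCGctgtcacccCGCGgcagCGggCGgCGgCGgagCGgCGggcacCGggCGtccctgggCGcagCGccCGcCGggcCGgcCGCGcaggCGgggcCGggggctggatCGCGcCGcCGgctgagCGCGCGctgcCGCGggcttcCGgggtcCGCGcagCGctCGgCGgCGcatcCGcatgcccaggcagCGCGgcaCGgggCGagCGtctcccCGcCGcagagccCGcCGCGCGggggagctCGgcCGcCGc
STAG3: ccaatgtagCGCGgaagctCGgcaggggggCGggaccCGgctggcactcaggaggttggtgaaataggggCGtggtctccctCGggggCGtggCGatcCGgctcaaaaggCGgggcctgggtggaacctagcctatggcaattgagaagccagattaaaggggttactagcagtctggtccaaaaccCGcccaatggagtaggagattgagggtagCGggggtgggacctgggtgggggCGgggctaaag
MSH4: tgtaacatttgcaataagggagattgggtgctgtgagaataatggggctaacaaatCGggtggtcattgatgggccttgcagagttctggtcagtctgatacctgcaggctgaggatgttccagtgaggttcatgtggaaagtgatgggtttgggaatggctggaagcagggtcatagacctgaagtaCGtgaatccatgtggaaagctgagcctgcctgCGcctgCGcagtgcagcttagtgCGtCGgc

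The printed stretches contained 28 CG in DAZL, 23 in DMC1, 25 in MSH5, 51 in MAEL, 14 in STAG3 and 6 in MSH4. Over 300 bases, from 250 before to 50 after the start, the 12 promoters had a median of 28 CG, against 14 over all 35116 RefSeq promoters. The upstream promoter of MAEL, with 60 CG in 300 bases, had more CG than 99.9% of them. The DDX4 promoter listed by RefSeq lies inside the gene and had 1 CG. The E2F6 core TCCCGC, sought on both strands, was in 9 of 12 promoters, and in 26.9% of all promoters. The E-box CACGTG, a motif that MGA and MAX can bind and that reads the same on both strands, was in 4 of 12, and in 7.26% of all. The 2 STAG3 promoters overlap and share 1 E-box, so the 4 promoters hold 3 separate E-boxes. Neither motif occurred in the first DAZL promoter, the DMC1 promoter or the DDX4 promoter, and a second DAZL promoter nearby held both. These are matches of letters, not measured sites, and both motifs contain a CG, in which these promoters are rich.

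The 12 RNA libraries held 16587860 to 36589089 reads on genes. Levels are in RPM, the reads on a gene scaled to library size, and 1 read was worth 0.0176 to 0.0400 RPM, so 3 reads, taken here as the floor, stood for 0.0528 to 0.120 RPM. EZH2 RNA ranged from 59.5 to 68.6 RPM in wild-type, 45.7 to 55.4 in heterozygous, 8.65 to 11.5 in null and 256 to 385 in restored ESCs, in the order that the labels give. All 7 ESC markers were detected in every genotype, with a summed level of 2269 to 2903 RPM in wild-type and 3424 to 3868 RPM in null ESCs. Summed markers of some other cells moved with EZH2 loss: the 5 endoderm markers lay at 19.4 to 32.6 RPM in wild-type and 76.7 to 156 RPM in null ESCs, and the 5 mesoderm markers at 14.5 to 43.4 and 123 to 200 RPM. The sums of the other lists overlapped between wild-type and null ESCs, at 212 to 303 and 95.3 to 348 RPM for mesenchyme, 6.57 to 14.9 and 9.31 to 18.9 RPM for trophectoderm and amnion, and 37.0 to 104.3 and 50.1 to 66.0 RPM for neural cells. Such sums follow their highest genes and can hide single markers. In the fit described below, COL3A1, LUM and TWIST1 were called higher and COL1A2 lower in null than in wild-type ESCs. GATA3 was called higher there, and PAX6 and SOX1 lower. LUM reached the mean of 0.1 RPM needed for that fit only through the null libraries, so it could only be called higher. Among ESC markers DPPA4, NANOG, POU5F1 and TDGF1 were called higher and SOX2 lower. Of all fitted genes 12.6% were called higher and 18.8% lower. The 5 markers of cycling cells lay at 793 to 1073 RPM in wild-type and 560 to 722 RPM in null ESCs. CGA, of the trophectoderm and amnion list, had 0 reads in all libraries, and no other marker of these lists did. The part of these markers in the results below was not tested. In such bulk RNA, fewer cells with a transcript and less of it per cell cannot be told apart.

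Of the 9 genes, 6 passed a mean of 0.1 RPM over all libraries and were fitted with limma among 20608 genes (DAZL, DMC1, MSH5, SYCP3, STAG3 and REC8). MSH4, MAEL and DDX4 stayed below it and are given as reads. Fitted differences are on the log2(RPM + 0.1) scale, which understates changes of low genes. A gene was called with a Benjamini-Hochberg adjusted p under 0.05 over all genes fitted.

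Proteins that bind RNA or act in germ granules are made from DAZL, a translational regulator of early germ cells, DDX4, the VASA helicase, and MAEL, a factor of the piRNA pathway that restrains transposons. DAZL (ENSG00000092345, GRCh38 chromosome 3, 16586792 to 16670306, minus strand) was measured at 3.29, 1.75 and 2.19 RPM in the 3 wild-type libraries. It was at 1.81, 0.756 and 4.32 RPM in heterozygous ESCs, at 0.422, 0.131 and 0.119 RPM in null ESCs and at 1.67, 1.82 and 1.84 RPM in restored ESCs. All 3 null libraries lay below all 9 others, and the remaining genotypes overlapped. The null values rested on 4 to 24 reads per library, against 69 to 148 in wild-type ESCs. The mean was 2.41 ± 0.792 RPM in wild-type and 0.224 ± 0.172 RPM in null ESCs (SD, n = 3), 8.15-fold lower in the fit, a log2 difference of -3.03 (SE 0.51). Against restored ESCs, at 1.78 ± 0.0921 RPM, it was 6.30-fold lower, a log2 difference of -2.65 (SE 0.51).

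DDX4 (ENSG00000152670, chromosome 5, 55738017 to 55817157, plus strand) had 1 read in 1 wild-type library, 3 reads in 1 null library and 0 reads in the other 10. At this depth its RNA was at or below the floor in every genotype, and no difference could be detected. MAEL (ENSG00000143194, chromosome 1, 166975582 to 167022214, plus strand) had 4, 0 and 3 reads in wild-type, 0, 1 and 0 in heterozygous, 1, 1 and 3 in null and 0 in all 3 restored libraries. It too stayed within a few reads of 0 in all genotypes, although its promoter differed in H3K27me3 as described further on.

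DMC1, MSH4 and MSH5 act in meiotic recombination. DMC1 is the meiotic recombinase that invades the homolog, and MSH4 and MSH5 form a pair that stabilizes crossover intermediates. DMC1 (ENSG00000100206, chromosome 22, 38518949 to 38570286, minus strand) was at 4.71, 5.48 and 6.01 RPM in wild-type and 3.28, 4.06 and 6.28 RPM in heterozygous ESCs. Its levels in null ESCs, 1.88, 1.88 and 2.02 RPM, spread the least, and those in restored ESCs were 2.96, 3.48 and 5.32 RPM. Each null library was below all 9 others. The mean of 1.93 ± 0.0802 RPM in null ESCs was 2.70-fold below the 5.40 ± 0.655 RPM of wild-type ESCs and 1.93-fold below the 3.92 ± 1.24 RPM of restored ESCs (SD, n = 3), log2 differences of -1.43 and -0.95 (SE 0.27 each).

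MSH5 (ENSG00000204410, chromosome 6, 31739948 to 31762834, plus strand) was the highest of the 9 in wild-type ESCs per length of transcript, at a mean of 3.00 RPKM (RPM per kb of exon). Its RPM were 12.8, 23.7 and 19.9 in wild-type, 7.69, 9.62 and 22.1 in heterozygous, 6.53, 4.71 and 6.65 in null and 10.1, 10.8 and 13.03 in restored ESCs. The null libraries were again below all others, and 1 of the heterozygous libraries stood at the level of wild-type ESCs while the remaining pair did not. The mean of 5.96 ± 1.08 RPM in null ESCs was 3.06-fold below the 18.8 ± 5.52 RPM of wild-type and 1.89-fold below the 11.3 ± 1.55 RPM of restored ESCs (SD, n = 3), log2 differences of -1.61 and -0.92 (SE 0.34 each). MSH5 shares 22815 bases with the readthrough gene MSH5-SAPCD1, whose means were 19.7, 13.5, 6.72 and 12.4 RPM in the same order of genotypes. Reads on the shared bases cannot be assigned to 1 of these 2 genes, and MSH5 is uncertain in that sense. MSH4 (ENSG00000057468, chromosome 1, 75796882 to 75913238, plus strand) had 1, 2 and 2 reads in wild-type, 4, 0 and 2 in heterozygous, 10, 12 and 2 in null and 5, 1 and 0 in restored libraries. The highest of these, 12 reads, was 0.225 RPM, and the lowest null library, with 2 reads, was at 0.0594 RPM against at most 0.0507 RPM in wild-type ESCs.

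SYCP3, STAG3 and REC8 build the meiotic chromosome axis. SYCP3 is a core protein of the lateral element of the synaptonemal complex, and STAG3 and REC8 are subunits of meiotic cohesin. SYCP3 (ENSG00000139351, chromosome 12, 101728648 to 101739472, minus strand) was at 0.733, 0.533 and 0.830 RPM in wild-type, 0.416, 0.627 and 1.03 in heterozygous, 0.827, 0.394 and 0.653 in null and 1.00, 0.884 and 1.44 in restored ESCs. Its restored libraries lay above all null and all wild-type libraries, and null and wild-type ESCs overlapped. The whole of SYCP3 lies within CHPT1 on the other strand, so its reads, 17 to 58 per library, may include reads of that gene.

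STAG3 (ENSG00000066923, chromosome 7, 100177563 to 100221488, plus strand) had much the same level in every genotype. It was at 7.24, 8.88 and 6.05 RPM in wild-type, 6.86, 7.93 and 5.92 in heterozygous, 8.29, 6.12 and 7.15 in null and 7.97, 6.38 and 5.20 in restored ESCs. All genotypes overlapped, and the log2 difference of null from wild-type ESCs was -0.03, with a 95% interval from -0.50 to 0.44. STAG3 overlaps GATS on the other strand by 20836 bases. REC8 (ENSG00000100918, chromosome 14, 24171853 to 24180257, plus strand) was at 1.04, 0.533 and 1.03 RPM in wild-type, 1.15, 1.32 and 0.801 in heterozygous, 1.39, 1.46 and 2.197 in null and 1.75, 1.501 and 1.119 in restored ESCs. Its null and restored libraries all lay above those of wild-type ESCs. The log2 difference of null from wild-type ESCs was 0.90 (SE 0.32), 1.87-fold higher.

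**Figure D1:**
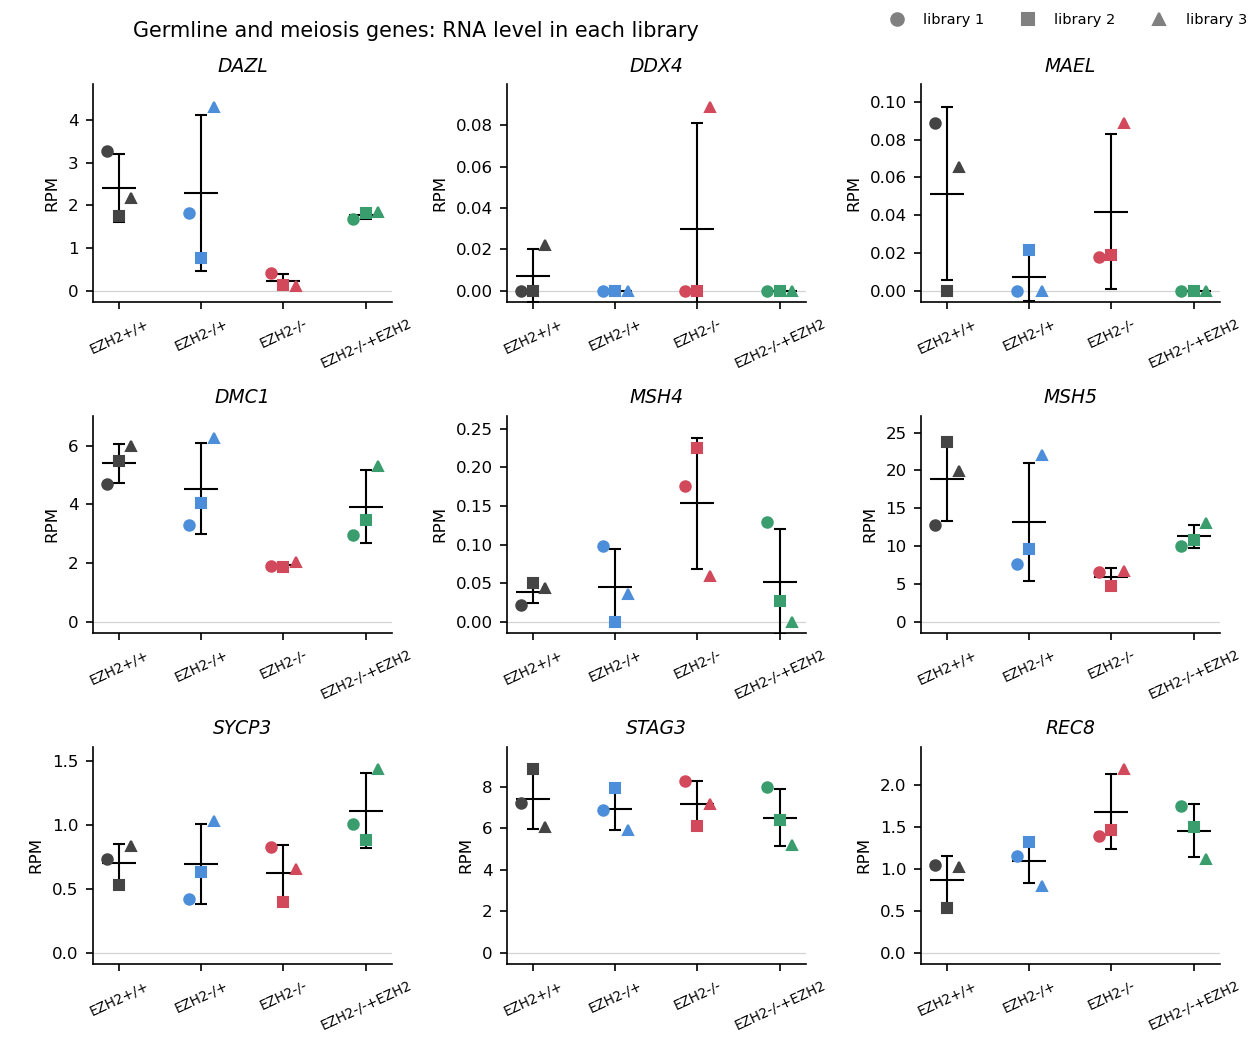
RNA of the 9 genes in each of the 12 libraries, in RPM, 1 panel per gene. Points are libraries, grouped by genotype, and bars mark the mean and SD (n = 3). The null points of DAZL, DMC1 and MSH5 lie below all other points of the same gene, while those of STAG3 lie among them.

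Per length of transcript the genes spanned a wide range in wild-type ESCs. MSH5 at 3.00 RPKM, DMC1 at 1.83 and STAG3 at 1.20 were followed by DAZL at 0.677, REC8 at 0.226 and SYCP3 at 0.182. MSH4 at 0.0119, MAEL at 0.0163 and DDX4 at 0.0019 RPKM were near 0. In null ESCs STAG3, at 1.17 RPKM, stood above MSH5, at 0.949, and DAZL, at 0.0630, stood below SYCP3, at 0.163. Across genotypes the means of DAZL, DMC1 and MSH5 took the same order, from wild-type through heterozygous and restored down to null ESCs. In that order wild-type and heterozygous overlapped, as did heterozygous and restored, and only null stood apart from its neighbour.

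The comparisons of null ESCs helped to choose these genes, and the counts that follow describe them without a test. Between null and restored ESCs, 4 of 9 genes had lower libraries without overlap (DAZL, DMC1, MSH5 and SYCP3), where 9.70% of all fitted genes did. MAEL was higher without overlap, on 1 to 3 reads, where 13.5% of fitted genes were. The limma fit put 1 of the 6 fitted genes, DAZL, past its threshold as lower, with 0.524% of all genes called lower and 2.63% called higher. With the library number as a replicate block these were 2, DAZL and DMC1. Over all genes the block raised the calls from 108 to 661 lower and from 542 to 1276 higher. DAZL no longer passed when null or restored library 2 or 3 was left out, with log2 differences between -3.06 and -2.43 whichever library was omitted. DMC1 and MSH5 passed besides DAZL, 3 in all, when heterozygous library 3 was left out. Over all genes that fit called 227 lower and 873 higher. Between null and wild-type ESCs, 3 of 9 genes were lower without overlap (DAZL, DMC1 and MSH5), where 29.2% of fitted genes were, and 2 were higher, REC8 and the unfitted MSH4, where 20.6% were. In the fit DAZL, DMC1 and MSH5 passed the threshold as lower and REC8 as higher, with 18.8% of all genes called lower and 12.6% higher. Because the first 3 were chosen for lower RNA on EZH2 loss, nothing is read from this count. REC8 no longer passed in 10 of 12 fits with a library left out, all but those without heterozygous library 3 or restored library 3, with log2 differences of 0.62 to 1.05. Over all fitted genes the median log2 difference from wild-type was -0.13, and scaling by median ratios moved the calls from 2593 higher and 3870 lower to 3294 higher and 2918 lower. Relative to either median DAZL, DMC1 and MSH5 were lower in null ESCs. The comparisons with wild-type ESCs share the same 3 control libraries.

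Between restored and wild-type ESCs, with 10.3% of all genes called in either direction, 0 of the 6 fitted genes were called by limma, with or without the block, and 1, REC8, had an unadjusted p under 0.05 without it and 3 with it, DMC1 and MSH5 as lower and REC8 as higher. Of all 20608 genes, 1532 higher and 3702 lower had such a p without the block, and 2132 and 5422 with it. These counts too are a description. DAZL differed by -0.37 (SE 0.51), DMC1 by -0.49 (SE 0.27) and MSH5 by -0.70 (SE 0.34) on the log2 scale. SYCP3, at 0.59 (SE 0.35), and REC8, at 0.72 (SE 0.32), were higher in all 3 restored libraries than in all 3 wild-type libraries. So were 2014 of the 20608 fitted genes.

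**Figure D2:**
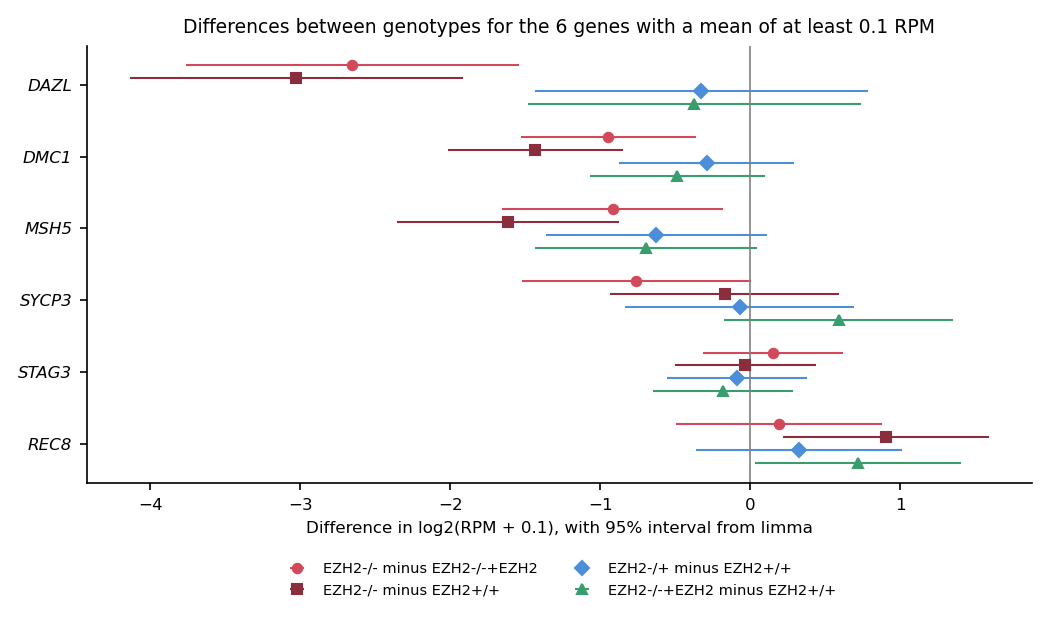
Log2 difference of RPM + 0.1 with its 95% interval for the 6 fitted genes in 4 comparisons of genotypes. The intervals of DAZL, DMC1 and MSH5 for null ESCs lie below 0, and in heterozygous against wild-type ESCs the intervals of all 6 genes include 0.

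Loss of 1 EZH2 allele was the comparison that the choice of genes did not use. Its wild-type libraries are also those of the comparison with null ESCs, so its test is not fully independent of the choice. None of the 6 fitted genes was called between heterozygous and wild-type ESCs by limma, with 1.15% of all genes called, and 0 had an unadjusted p under 0.05. With the replicate block 0 were called and 1, MSH5, had an unadjusted p under 0.05. Of all 20608 genes, 509 higher and 1672 lower had such a p without the block, and 866 and 2729 with it. The log2 difference was -0.63 for MSH5 (95% interval -1.36 to 0.11, limma adjusted p = 0.580), -0.33 for DAZL (-1.44 to 0.78, adjusted p = 0.936) and -0.29 for DMC1 (-0.87 to 0.29, adjusted p = 0.827). The intervals of DAZL and MSH5 reached below -1, so for both a fall of that size cannot be set apart from none. REC8 was at 0.32 (-0.36 to 1.01, limma adjusted p = 0.844), STAG3 at -0.09 (-0.56 to 0.38, adjusted p = 0.969) and SYCP3 at -0.07 (-0.83 to 0.69, adjusted p = 0.988). For all 9 genes the libraries of heterozygous and wild-type ESCs overlapped. Of the 20608 fitted genes, 653 were higher and 2450 lower without overlap.

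The heterozygous libraries differed among themselves. Library 3 had the highest DAZL, DMC1, MSH5 and SYCP3 of the 3. The summed endoderm markers were 11.5 RPM in library 3, against 32.6 and 94.8 RPM in libraries 1 and 2, and the summed mesoderm markers 4.77 RPM against 41.8 and 71.2 RPM. Cycling markers summed to 917 RPM in it and to 862 and 820 RPM in the others. The part of these markers in the spread was not tested. Without heterozygous library 3, MSH5 was called lower than in wild-type ESCs, at -1.08 (SE 0.26, limma adjusted p = 0.0472), while DAZL, at -0.92 (adjusted p = 0.285), and DMC1, at -0.54 (adjusted p = 0.276), were not. Over all genes the fit without library 3 called 151 higher and 451 lower, against 37 and 199 with all libraries. Without heterozygous library 2, the DAZL difference was 0.26.

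The 3 genes whose levels were most like each of the lowered genes were found by Pearson correlation of log2(RPM + 0.1) over the 12 libraries among the 15499 genes that averaged 1 RPM or more. For DAZL they were ST3GAL3 (r = 0.953), IGF2BP3 (r = 0.944) and PITPNM3 (r = 0.936). ST3GAL3, a sialyltransferase, went from a mean of 10.1 RPM in wild-type to 2.58 RPM in null ESCs, and to 7.14 RPM in restored ESCs. For DMC1 they were KMO (r = 0.994), DHRS12 (r = 0.986) and ORAI3 (r = 0.986). KMO, an enzyme of tryptophan breakdown, was at 11.9, 8.60, 1.37 and 6.76 RPM in wild-type, heterozygous, null and restored ESCs. For MSH5 they were its overlapping partner MSH5-SAPCD1 (r = 0.993), KIAA1191 (r = 0.973) and PTGR2 (r = 0.972). The 12 points share genotype and library depth, so these values describe likeness and nothing more.

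The ChIP-seq table gave each mark in windows of 5 kb, 2.5 kb either side of a start site, and 80 of its 153956 windows belonged to the 9 genes. The window with the most H3K4me3 in wild-type ESCs was used for each gene, and DAZL and MAEL are also given at the start their first annotated transcript uses. Each histone value is a mean made by the authors, without a spread, so ChIP-seq values were not tested. The values step as a mean of 2 libraries does, which is fewer than the replicates the study describes, and the 95% intervals, which cover counting error only, were computed for 2. Without antibody (input), the median over all gene names was 1.501 RPM in wild-type ESCs.

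H3K27me3 differed between the promoters of these genes by more than an order of magnitude in wild-type ESCs. MAEL had the most, at its upstream start (chr1:166973082-166978082), with 15.8 RPM in wild-type, 19.0 in heterozygous, 1.16 in null and 14.1 in restored ESCs. This value was above that of 94.4% of all gene names in wild-type ESCs, and the log2 difference of null from wild-type ESCs was -3.66 (counting interval -4.19 to -3.14). The EZH2 protein itself was at 0.837 RPM in this window, against a median of 0.322 RPM over all gene names. The start of ILDR2 lies in the same window, so the mark cannot be given to MAEL alone. At the downstream MAEL start, 2.00 RPM in wild-type and 1.01 RPM in null ESCs were near the input level.

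STAG3 (chr7:100175063-100180063) followed, with 4.28, 4.32, 0.868 and 3.73 RPM of H3K27me3 in wild-type, heterozygous, null and restored ESCs. The log2 difference of null from wild-type ESCs was -2.18 (counting interval -2.84 to -1.52), while its RNA differed by -0.03. GPC2 starts in the same window. DMC1 (chr22:38567631-38572631) was near the median of all gene names in wild-type ESCs, with 2.12 RPM against 1.83, and went to 1.54, 0.331 and 1.24 RPM in heterozygous, null and restored ESCs. The log2 difference of null from wild-type ESCs was -2.36 (counting interval -3.40 to -1.32). The input in this window was 1.64 RPM in wild-type and 1.91 RPM in null ESCs, so the wild-type value was near input. At DMC1, then, both H3K27me3 and RNA were lower in null ESCs, with little of the mark in wild-type ESCs.

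At DAZL, H3K27me3 was not lower in null ESCs. At its upstream start (chr3:16667806-16672806) H3K27me3 was at 1.58, 1.22, 2.84 and 1.36 RPM in wild-type, heterozygous, null and restored ESCs. The input in this window was 1.89, 1.86, 1.74 and 1.84 RPM. The log2 difference of 0.81 between null and wild-type ESCs (counting interval 0.19 to 1.42) was reached by 5.96% of all gene names. At the downstream start (chr3:16602999-16607999), which the printed DAZL sequence lies in, the values were 1.83, 1.19, 2.36 and 1.44 RPM and the difference was 0.35 (counting interval -0.25 to 0.95). MSH5 (chr6:31737448-31742448), with 1.23 RPM in wild-type and 0.720 RPM in null ESCs, was below the input median in both, and the counting interval of its difference, -1.57 to 0.17, included 0.

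The other 4 genes had little H3K27me3. DDX4 was at 1.20 RPM in wild-type and 0.971 RPM in null ESCs, SYCP3 at 0.581 and 0.796, REC8 at 0.491 and 0.720, and MSH4 at 0.347 and 0.856 RPM. The window used for REC8 is not at its first start, and that of SYCP3 holds a start of CHPT1. In all, H3K27me3 was lower by 1 log2 unit or more at 3 of the 9 genes (MAEL, DMC1 and STAG3), as it was at 45.2% of all 35683 gene names. It was higher by as much at 1, MSH4, on about 3.16 reads per library in wild-type ESCs, and at 3.86% of all names. The median log2 difference was -0.28 over the 9 genes and -0.85 over all names.

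Marks of active promoters were read at the same windows. H3K4me3 was high at MSH5, with 12.2 RPM in wild-type and 8.36 RPM in null ESCs, a log2 difference of -0.54 (counting interval -0.92 to -0.16). At DMC1 it was 9.07 and 9.22 RPM, although DMC1 RNA was lower in null ESCs. MAEL, with 9.48 and 7.32 RPM, and STAG3, with 7.22 and 6.72 RPM, carried H3K4me3 together with H3K27me3 in wild-type ESCs. DAZL was at 2.46, 2.88, 4.46 and 3.76 RPM at its upstream start in wild-type, heterozygous, null and restored ESCs, where the median of all gene names was 4.95, 6.71, 5.34 and 5.58 RPM. DDX4, MSH4, REC8 and SYCP3 were between 0.430 and 1.77 RPM in all genotypes, near or below input.

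H3K27ac, a mark of active promoters and enhancers, was above 99.1% of gene names at MSH5 in wild-type ESCs, at 4.27 RPM. It was 6.37 RPM there in null and 6.94 RPM in restored ESCs, while MSH5 RNA was lower in null than in wild-type ESCs and overlapped between restored and wild-type ESCs. The start of CLIC1 also lies in that window. DAZL H3K27ac was 3.00, 3.85, 2.53 and 4.16 RPM, with a log2 difference of null from wild-type ESCs of -0.24 (counting interval -0.78 to 0.30). Its H3K4me1, a mark of enhancers and promoter flanks, was 4.04, 5.31, 3.56 and 5.27 RPM, with a difference of -0.18 (counting interval -0.60 to 0.24). Both intervals included 0. DMC1 H3K27ac, at 2.86, 3.32, 3.16 and 3.51 RPM, was not lower in null than in wild-type ESCs. Over the 9 genes the median log2 difference of null from wild-type ESCs was 0.13 for H3K27ac, -0.30 for H3K4me3 and -0.17 for H3K4me1, against 0.34, -0.13 and 0.12 over all gene names.

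**Figure D3:**
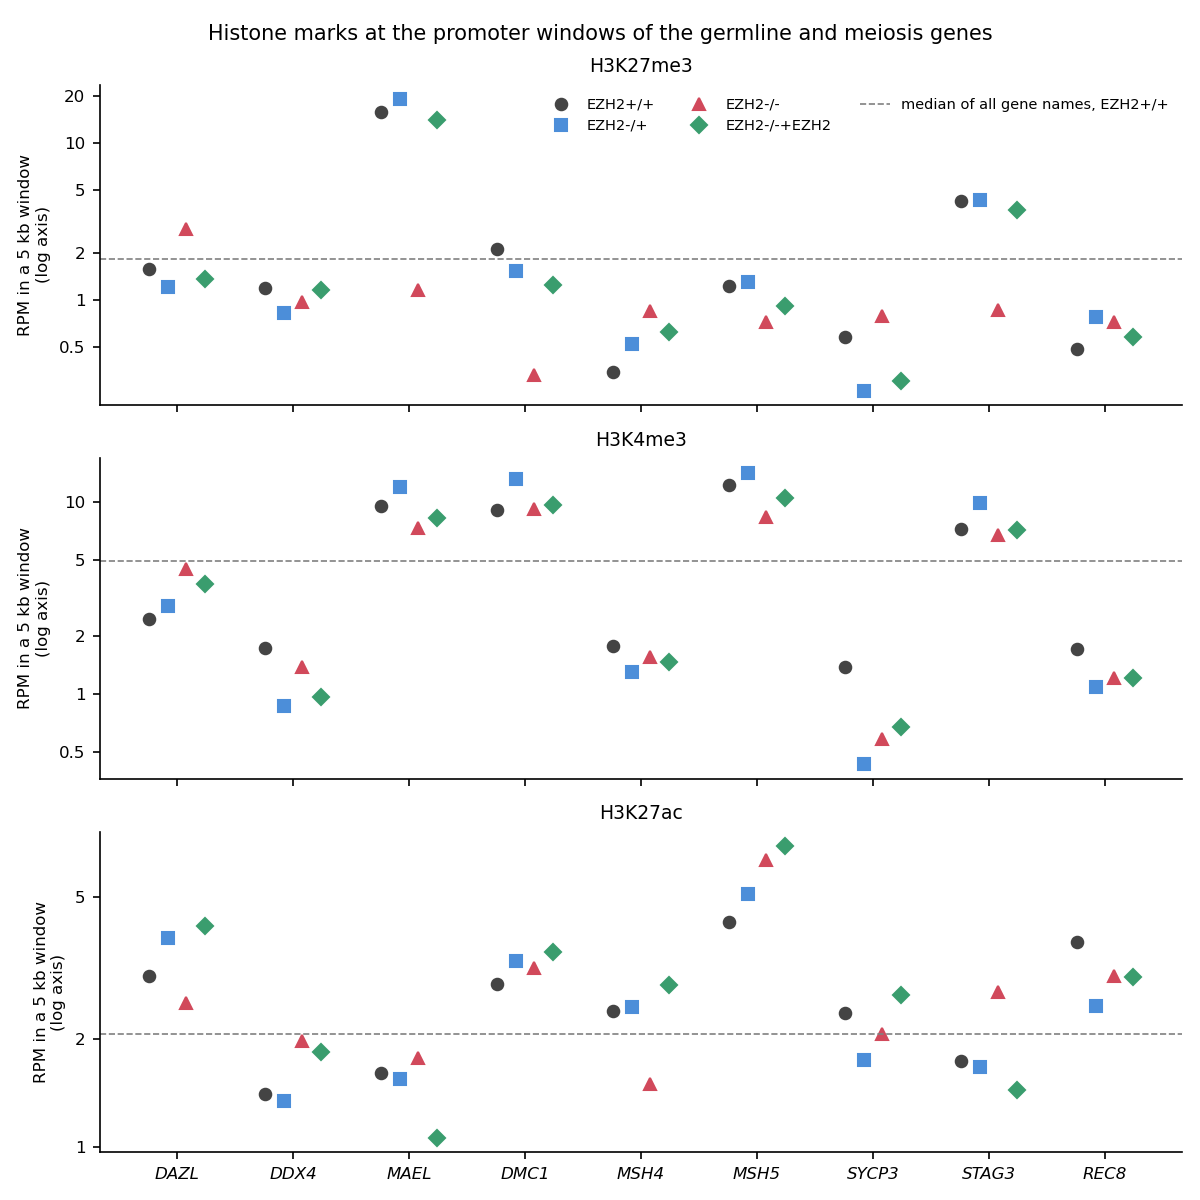
H3K27me3, H3K4me3 and H3K27ac at the promoter window of each gene, in RPM on a log axis, by genotype. Each point is the authors' mean, with no error, and the dashed line is the median of all gene names in wild-type ESCs. H3K27me3 at MAEL, STAG3 and DMC1 is lowest in null ESCs, while at DAZL it is highest there.

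To place the 9 genes in their programme, 64 further genes of the germline and of meiosis were listed by role. The table held 62 of them and 39 passed the mean of 0.1 RPM. Like the 9 genes they were listed with earlier results of these data known, but no rule picked them by their values. Tests are given for all 4 comparisons, except for TDRD1, TEX101, TEX11 and MEI4. These reached the mean of 0.1 RPM only through the null libraries, so they could only be called higher there. They are counted below as a description. Between null and wild-type ESCs, limma called 10 higher and 7 lower, 25.6% and 17.9% of 39, where 12.6% and 18.8% of all genes were called, with a median log2 fold change of -0.29 against -0.13 over all genes. Between null and restored ESCs it called 2 higher (TDRD1 and TEX101) and 1 lower, 5.13% and 2.56% of 39. Of all genes 2.63% and 0.524% were called, and the median was 0.08 against 0.02 over all genes. With the replicate block it called 5 higher and 3 lower, 12.8% and 7.69% of 39. The block called 1276 higher and 661 lower of all 20608 genes. Between restored and wild-type ESCs limma called 3 higher (DNMT3L, GTSF1 and HORMAD1) and 0 lower, with 5 lower at an unadjusted p under 0.05. Over all genes it called 701 higher and 1422 lower, and 3702 were lower at an unadjusted p under 0.05. With the block 5 of the list were higher and 1 lower, beside 1290 and 3321 of all genes. Between heterozygous and wild-type ESCs limma called 0, with 7 at an unadjusted p under 0.05. Of all 20608 genes, 509 higher and 1672 lower had such a p. With the block limma called 1 of the list, SYCP2L, as lower, beside 148 higher and 446 lower of all genes.

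Germ granules and the piRNA pathway, the role of DAZL, DDX4 and MAEL, had 15 fitted genes. Of these 5 were higher and 1 lower in null than in wild-type ESCs, 33.3% and 6.67%. Among all genes 12.6% and 18.8% were called. TDRD1 and TEX101 are among the 5 and passed the filter only through the null libraries, so nothing is read from this count. TDRD1, a tudor protein of germ granules, had 0 reads in all wild-type and heterozygous libraries and 2.01 ± 0.753 RPM in null ESCs (SD, n = 3). It was at least 28.9-fold higher than the floor of 3 reads per library. Its 283 reads stood against 1 read in the restored libraries, a ratio of 199 with a counting interval of 35.5 to 7895. TEX101, a germ cell surface protein, was at 0.520 ± 0.301 RPM in null ESCs and had 0 reads in wild-type ESCs, at least 7.497-fold higher. Without null library 2 or 3 its mean was below 0.1 RPM and it was not fitted. DNMT3L, the cofactor of germline DNA methylation, rose from 0.420 ± 0.0668 to 29.0 ± 13.2 RPM (log2 5.71, SE 0.56, limma adjusted p = 3.5e-05) and was at 6.27 ± 1.11 RPM in restored ESCs. GTSF1, a piRNA factor, was at 0.0305 RPM in wild-type, 0.688 RPM in null and 0.332 RPM in restored ESCs (log2 2.54, limma adjusted p = 0.00085 against wild-type). TDRD7 rose from 4.66 ± 0.231 to 10.6 ± 2.45 RPM (log2 1.14, SE 0.24, limma adjusted p = 0.0038), with 6.57 ± 0.724 RPM in restored ESCs. NANOS1, an RNA-binding protein of germ cells, fell from 4.64 ± 0.209 to 2.18 ± 0.192 RPM (log2 -1.06, limma adjusted p = 0.0016).

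DMC1 and MSH5 belong by role to recombination, which had 15 fitted genes. Of these 4 were higher and 4 lower in null than in wild-type ESCs, 26.7% each way. Among all genes 12.6% were called higher and 18.8% lower. TEX11 and MEI4 are among the 4 higher and passed the filter only through the null libraries, so nothing is read from the count of higher genes. MLH3, a mismatch repair protein that resolves crossovers, fell from 14.5 ± 2.61 to 5.96 ± 0.729 RPM (log2 -1.26, SE 0.18, limma adjusted p = 0.00037), and it was also lower than in restored ESCs (log2 -0.80, SE 0.18, limma adjusted p = 0.033). The second call was lost without wild-type library 1, or library 2 or 3 of null or of restored ESCs (limma adjusted p up to 0.133). MND1, whose product assists DMC1 in strand invasion, fell from 18.04 ± 2.03 to 7.29 ± 0.567 RPM (log2 -1.29, limma adjusted p = 0.0059). HFM1, a meiotic helicase, was at 2.30 ± 0.844 and 0.910 ± 0.633 RPM (log2 -1.35, limma adjusted p = 0.037), and CCNB1IP1, a crossover regulator, at 91.2 ± 7.80 and 50.2 ± 3.63 RPM (log2 -0.86, limma adjusted p = 0.033). The HFM1 call was lost without wild-type library 1 or 2 or null library 2 or 3 (limma adjusted p up to 0.134), and the CCNB1IP1 call without any 1 of the 6 wild-type and null libraries (adjusted p up to 0.104).

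HORMAD1, an axis protein of meiotic chromosomes, had 1 read in the wild-type libraries and 131 reads in the null libraries (limma adjusted p = 0.0014), a ratio of 119 with a counting interval of 20.9 to 4721. It was at 1.22 ± 0.511 RPM in restored ESCs. TEX11, which passed the filter only through the null libraries, was at 0.0484 RPM in wild-type and 0.367 RPM in null ESCs. MEI4, needed for meiotic DNA breaks, was at 0.135 and 0.396 RPM. It too passed the filter only through the null libraries, since the other libraries together averaged under 0.1 RPM. The TEX11 call was lost without library 1 or 3 of wild-type or of null ESCs. The MEI4 call was lost without wild-type library 1 or 3 or any null library. SYCE2, of the central element of the synaptonemal complex, fell from 1.99 ± 0.457 to 0.772 ± 0.159 RPM (log2 -1.25, limma adjusted p = 0.022), a call lost without wild-type library 2 or 3 or null library 2 (adjusted p up to 0.0849). C17orf104, the older name of the meiotic gene MEIOC, fell from 10.6 ± 1.88 to 6.65 ± 0.952 RPM (log2 -0.66, limma adjusted p = 0.049), a call lost without wild-type library 2 or 3, any null library or restored library 1 (adjusted p up to 0.174). Of the 3 fitted meiotic cohesin genes, the role of STAG3 and REC8, 0 were called by limma, 1 (SGOL2) had an unadjusted p under 0.05, and the same 1 was called with the block.

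**Figure D4:**
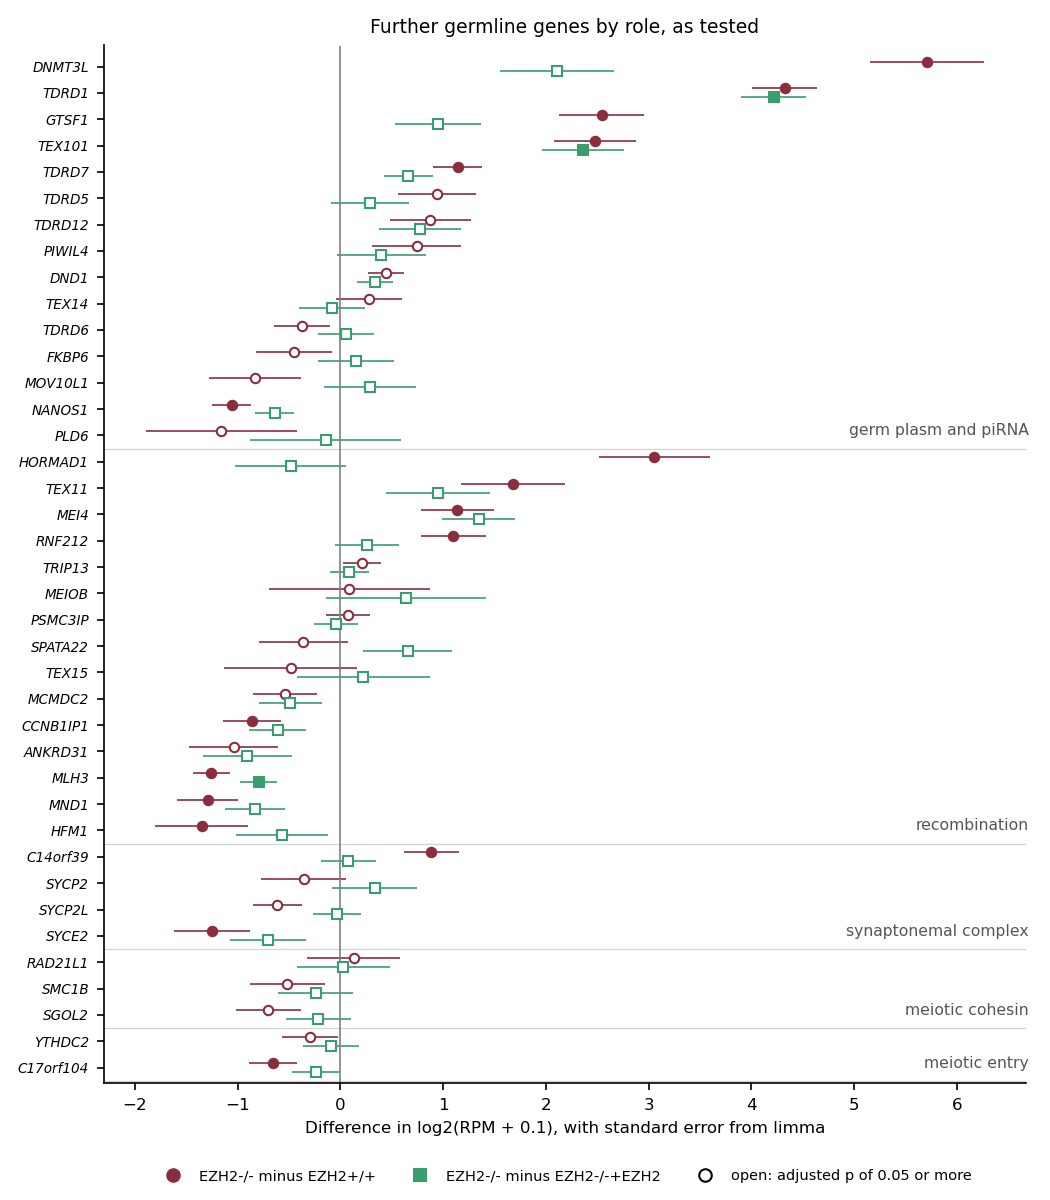
Difference in log2(RPM + 0.1), with its SE, of null from wild-type (circles) and from restored ESCs (squares) for the 39 fitted genes of the germline list, by role, with filled points where the limma adjusted p was under 0.05. Against wild-type ESCs, DNMT3L and TDRD1 lie furthest to the right and HFM1, at -1.35, furthest to the left.

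Promoter H3K27me3 of listed genes can be set beside that of MAEL, STAG3, DMC1 and DAZL. C17orf104 went from 18.7 to 1.53 RPM and TDRD7 from 9.34 to 1.05 RPM between wild-type and null ESCs, and the RNA of the first was lower and that of the second higher in null ESCs. TDRD1 had 2.41 and 1.19 RPM, and TEX101 3.14 and 4.10 RPM, and the RNA of both rose.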

How the data were processed

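RNA-seq covered 12 libraries of SSEA4-sorted H9 ESCs, 3 for each of 4 genotypes, and ChIP-seq covered 4 histone marks and input in those genotypes, with EZH2 in wild-type ESCs. Per the sources, the authors trimmed reads with Trim Galore 0.4.0, aligned them to GRCh38 with TopHat2 2.0.12 (RNA) or Bowtie2 2.2.5 (ChIP), counted them without strand in SeqMonk and deposited log2 RPM, with 0.9 read in place of 0. For ChIP-seq the deposited log2 RPM are per window of 5 kb, and the authors describe ChIP-seq data as an average of 3 biological replicates. In the deposited histone columns 100% of low values lay on the steps of a mean of 2 libraries in log2 space, against 13.7% to 60.8% on those of 3, so 2 libraries of 3430000 to 23800000 reads each were assumed for histone and input columns. The authors tested raw counts with DESeq2, and such counts were not used here.

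Values were returned to RPM, and to whole reads for the RNA, with the placeholder set to 0. Below the tolerance of 0.02 of a read 100% of low RNA values were whole. Genes were fitted with limma 3.58.1 in R 4.3.3 on log2(RPM + 0.1) over all 12 libraries, without a block, for the 20608 genes averaging 0.1 RPM or more. A Benjamini-Hochberg adjusted p under 0.05 was a call. The fit was tested on simulated data.

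The 9 genes and all lists were chosen with earlier results of these data known. Named beside the 9 genes are, of the germline list, at most 8 called genes of largest change per comparison and direction, the called genes of 2 further lists, and the 3 genes most like DAZL, DMC1 and MSH5. Other genes named in the closing section are said there to be outside that rule. Other settings were the pseudocount, the filter, median-ratio scaling, other window choices, leaving out each library, and the library number as a block. The replicates are given as biological, but where they were not separate cultures the p values measure only the spread between libraries. Each genotype has libraries numbered 1 to 3, and same-numbered libraries deviated together in 18 of 18 pairs (correlation over 0.1, mean 0.415), against 8 of 36 pairs of other numbers (mean -0.197), so the numbers pair the libraries.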

Additional observations from a re-analysis of the deposited data

How the results depend on the processing

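Of the 4 comparisons, the count of members called between null and restored ESCs, 1, became 0 with a pseudocount of 1 RPM, 2 with the replicate block and 0 to 3 when a library was left out. It stayed 3 to 4 between null and wild-type ESCs and 0 between restored and wild-type ESCs, and was 0 to 1 for heterozygous ESCs, with MSH5 called without heterozygous library 3. Germline list genes higher in null than in restored ESCs, 2, numbered 0 with a mean of 1 RPM or more, 4 without a filter, 4 with a pseudocount of 1 RPM, 5 with the block and 1 to 4 with a library left out. Those lower, 1, numbered 3 with the block and 0 to 1 with a library left out. Against wild-type ESCs the 10 higher genes became 4 with a mean of 1 RPM or more and 6 to 11 with a library left out (6 without null library 3), and the 7 lower genes 3 to 7 (3 without null or wild-type library 2, 4 without null library 3). For heterozygous ESCs the count of 0 became 1 without a filter, 1 with a pseudocount of 1 RPM, 1 with the block and 0 to 2 with a library left out (2 without heterozygous library 3). For restored against wild-type ESCs the count of 3 became 1 with a mean of 1 RPM or more, 6 with the block and 2 to 4 with a library left out. Over the counts of members and of the germline list, the block changed no other count by more than 1.5 times. The cause of these changes was not tested.

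In the differences of single members, DAZL between heterozygous and wild-type ESCs ranged from -0.92 to 0.26, SYCP3 from -0.36 to 0.20 and STAG3 from -0.22 to 0.050 with a library left out, and SYCP3 was 0.0019 with median-ratio scaling. The DAZL difference shrank to -1.19 (restored) and -1.46 (wild-type) with a pseudocount of 1 RPM, which lies above its level in null ESCs. The median H3K27me3 difference over the 9 genes, -0.28, became 0.57 when centred on all gene names, and that of H3K27ac, 0.13, became -0.20. For H3K4me1, -0.17 became 0.16 with the window of most H3K27me3 and 0.069 as a mean over windows. Depth limited MSH4, MAEL and DDX4, which had at most 12 reads in a library, and the absence of separate ChIP libraries left ChIP differences with counting error alone.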

Other observations

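The complex PRC1.6, and E2F6 with its partners, are known from the silencing of germline genes, and 13 of their genes were fitted. Between null and wild-type ESCs limma called 2 lower and 0 higher. This was 15.4% lower, where 18.8% of all genes were called lower. With the replicate block limma also called 1 lower, YAF2, between null and restored ESCs, and 2 lower, RING1 and TFDP2, between restored and wild-type ESCs. In these comparisons the block called 661 and 3321 of all 20608 genes lower. TFDP2, a dimer partner of E2F factors, went from 61.3 ± 4.11 to 28.0 ± 3.97 RPM (SD, n = 3, log2 -1.14, limma adjusted p = 0.001). YAF2, a polycomb subunit that binds RING1 proteins, went from 7.01 RPM (5.92 to 8.72) to 2.93 RPM (2.90 to 2.98) (log2 -1.21, limma adjusted p = 0.00082). E2F6 itself was at 21.6 RPM in wild-type and 19.8 RPM in null ESCs, and MGA at 43.9 and 39.5 RPM; neither was called, and both are outside the rule for named genes and are given because their motifs were searched.

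Of 7 somatic relatives of the 9 genes, 1 was called lower between null and wild-type ESCs, 14.3% where 18.8% of all genes were called lower. RAD21, the mitotic counterpart of REC8 in cohesin, fell from 218 ± 32.2 to 137 ± 24.5 RPM (log2 -0.67, limma adjusted p = 0.0074), where REC8 was at 0.868 and 1.68 RPM. With the block 4 were called, DDX3X and SMC1A higher and MSH3 and RAD21 lower. The block called 3566 higher and 5773 lower of all 20608 genes in this comparison.

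Primordial germ cells are the embryonic founders of the germline, and 10 of their listed genes were fitted. In null against wild-type ESCs limma called 7 higher and 2 lower (ITGA6 and KIT), 70% and 20% of 10. Of all genes 12.6% and 18.8% were called. Against restored ESCs it called 3 higher (DPPA3, SOX17 and TCL1A), 30% of 10, where 2.63% of all genes were called higher. With the block 4 were higher and 1, ITGA6, lower than in restored ESCs, beside 1276 higher and 661 lower of all 20608 genes. TCL1A, which is in each of these counts of higher genes, passed the mean of 0.1 RPM through its null libraries. It could only be called higher there, so nothing is read from these counts. The genes of this list are outside the rule and were named after their values were seen. POU5F1 and NANOG of this list are also ESC markers, and SOX17 is an endoderm marker. DPPA3 was at 0.0733 ± 0.0669 RPM in wild-type, 0.617 ± 0.208 in heterozygous, 8.93 ± 4.79 in null and 0.851 ± 0.307 in restored ESCs (SD, n = 3). Its log2 fold change in null against wild-type ESCs was 5.64, and the change was called by limma without any 1 library too. In heterozygous ESCs DPPA3 was called higher (log2 2.09, limma adjusted p = 0.045), a call lost in 9 of 12 fits that left out a library.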
